A study of Mus musculus with 6 samples.

Results

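The subject is 9 long noncoding genes that carry small nucleolar RNAs (snoRNAs) in their introns: Gas5, Snhg1, Snhg3, Snhg5, Snhg6, Snhg8, Snhg12, Snhg15 and Snhg17. They were chosen by symbol, and each of the 9 matched 1 of the 57010 rows of the count table, all 9 annotated as lncRNA. The cells were RAW 264.7, an established mouse line of macrophages, and both groups were first exposed to lipopolysaccharide (LPS), an agonist of the receptor TLR4. They then received extracellular vesicles of tendon stem cells, kept in normoxia in 1 group (normoxic-EV, 3 libraries) and preconditioned in hypoxia in the other (hypoxic-EV, 3 libraries). Cells without vesicles were not analysed here, and the sources used here give neither the oxygen level, the vesicle dose nor the time of treatment. Nothing in the labels says that replicates were independent cultures; the p-values therefore reflect only how far these libraries vary, which may be technical.

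SnoRNAs guide chemical modification of ribosomal RNA: box C/D snoRNAs direct 2′-O-methylation and box H/ACA snoRNAs direct pseudouridylation. In mammals most are cut out of introns of host genes, and the spliced RNA left over from a noncoding host has no long open reading frame. Gas5 and several Snhg transcripts begin with a pyrimidine tract, the TOP element of messenger RNAs for the translation machinery, are engaged by ribosomes, and are degraded by nonsense-mediated decay. Gas5 was first isolated as a transcript that accumulates in growth-arrested cells.

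The hosts differ in how many snoRNA rows they hold, where overlapping rows of 1 symbol (Snord80 in Gas5, Snora16a in Snhg12) count separately. By the coordinates of the count table (GRCm39), 33 snoRNA rows with 31 different symbols lay inside the 9 genes on the same strand: 10 in Gas5, 8 in Snhg1, 5 in Snhg12, 3 in Snhg17, 2 each in Snhg3 and Snhg5, and 1 each in Snhg6, Snhg8 and Snhg15. To show what the hosts that fell carry, 3 snoRNAs of Snhg12 and 2 of Snhg1 are printed, 5′ to 3′ as DNA letters, from the GENCODE M21 transcript set by Ensembl identifier. In the box C/D snoRNAs capitals mark the letters TGATGA of box C and CTGA of box D, and in the H/ACA snoRNAs the ACA that stands 3 bases before the end.
Snora16a (Snhg12, H/ACA): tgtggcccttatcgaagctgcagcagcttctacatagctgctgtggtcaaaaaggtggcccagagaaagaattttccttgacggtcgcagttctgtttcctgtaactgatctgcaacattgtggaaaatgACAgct
Snora61 (Snhg12, H/ACA): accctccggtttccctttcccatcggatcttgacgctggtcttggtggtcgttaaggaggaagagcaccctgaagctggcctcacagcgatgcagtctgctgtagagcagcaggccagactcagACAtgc
Snord99 (Snhg12, C/D): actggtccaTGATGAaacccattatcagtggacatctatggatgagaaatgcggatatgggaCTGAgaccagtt
Gm25855 (Snhg1, C/D): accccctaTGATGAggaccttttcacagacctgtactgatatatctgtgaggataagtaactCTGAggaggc
Gm23246 (Snhg1, C/D): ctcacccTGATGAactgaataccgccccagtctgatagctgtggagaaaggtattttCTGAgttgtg
The 5 are between 67 and 136 bases long.

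**Figure D1:**
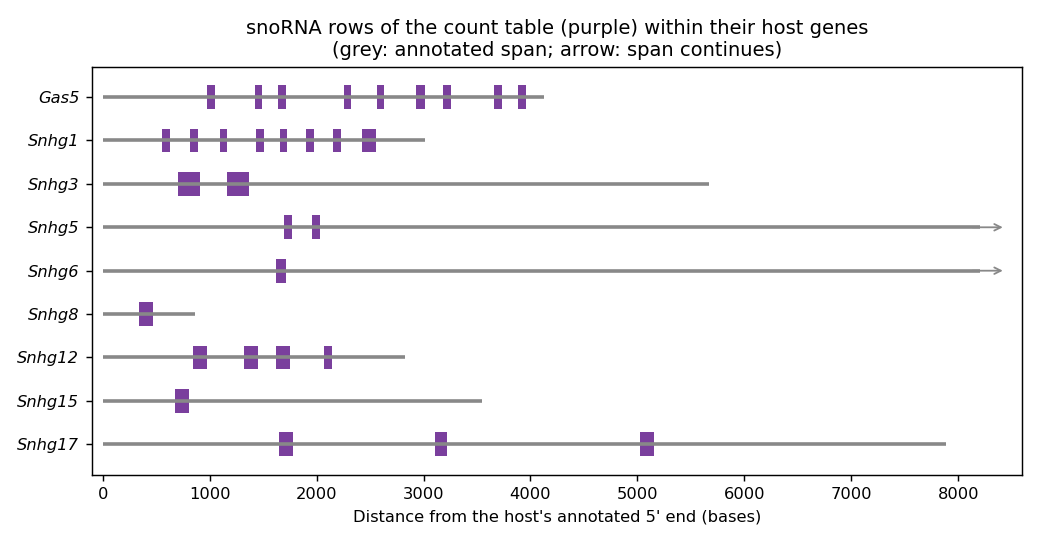
Map of the snoRNA rows (purple boxes) along the annotated span of each host gene (grey line), with distance from the host's 5′ end in bases on the x axis. Gas5 and Snhg1 hold the longest series, with 10 and 8 rows, overlapping rows of 1 symbol (Snord80 in Gas5, Snora16a in Snhg12) merge into 1 box, and the spans of Snhg5 and Snhg6 run on beyond the axis.

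None of the 33 snoRNA rows had a count in any of the 6 libraries, so the snoRNAs themselves were not measured in these poly(A)-enriched libraries. Over all genes of the table, the snoRNA rows numbered 1507, of which 214 had at least 1 count, with 4529 counts in all. A count of 0 allows up to 3 counts, which is between 0.129 and 0.179 CPM (counts scaled to a common library size) in a library. Such limits cover counting error only. The sources used here do not say whether reads shared by a snoRNA row and its host were counted for either gene.

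Library totals ran from 16751665 to 23422328 counts. The macrophage label was checked with 7 markers, all of which were expressed, at a summed level of 9471 to 9866 CPM with normoxic-EV and 7586 to 7985 CPM with hypoxic-EV. The groups did not overlap in that sum, of the 7 markers 2 rose and 4 fell, and the part of this difference in the results was not tested. Of 10 tendon or fibroblast markers 5 had no count in any library, and their summed level lay between 0.715 and 1.46 CPM. Of 6 lymphocyte markers 3 had no count in any library, and their summed level was 0.239 to 0.642 CPM with normoxic-EV and 0.766 to 0.885 CPM with hypoxic-EV.

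With hypoxic-EV, Snhg12 and Snhg1 fell, Snhg5 rose, and Gas5, Snhg6, Snhg8, Snhg15 and Snhg17 were not called changed. In the fit Snhg12 fell by 37.4% and Snhg1 fell by 21.9%, and Snhg5 rose by 16.5%. Of the 9 genes 8 passed the count filter; Snhg3 did not. The 3 called genes were also the 3 of 8 whose groups did not overlap. Over all 13303 tested genes, edgeR's quasi-likelihood test called 44.2% at an adjusted p under 0.05 (22.7% higher, 21.5% lower), and the groups did not overlap in 52.8%. Among the 992 tested lncRNA rows, 26.1% were called, 6.25% higher and 19.9% lower. A count of 3 of 8 is near these shares. The median log2 fold change of the 8 genes was -0.08, beside -0.18 for tested lncRNA rows and -0.001 for all tested genes.

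**Figure D2:**
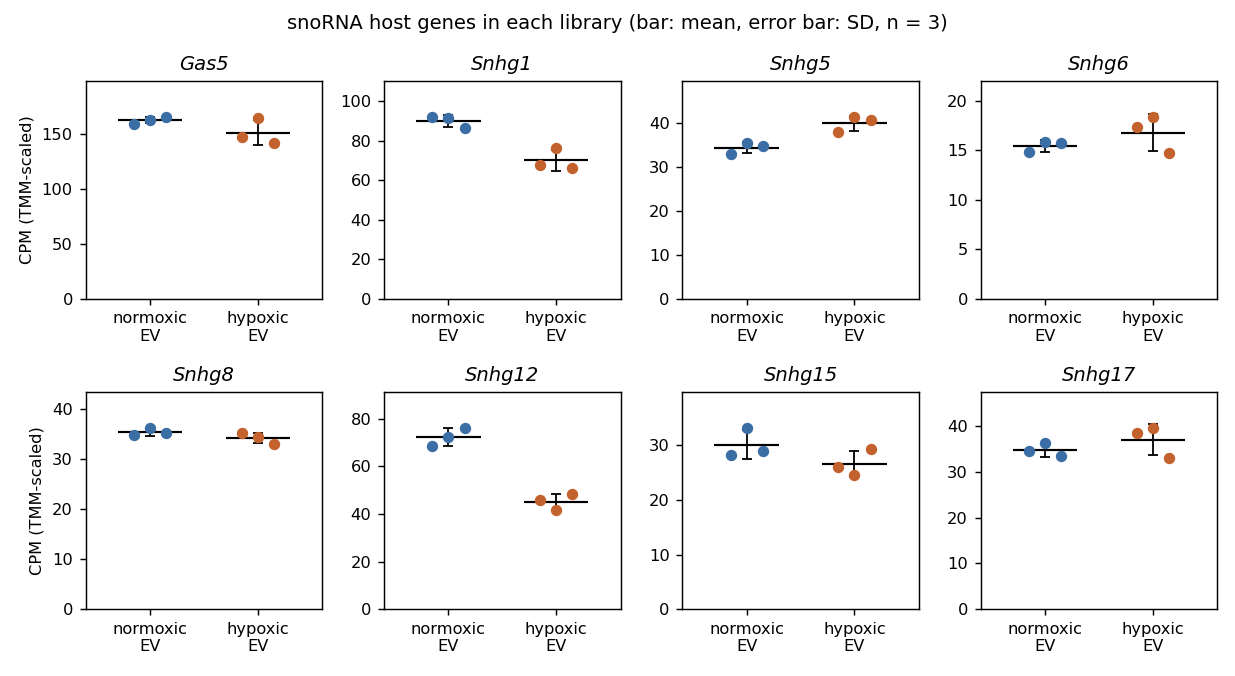
TMM-scaled CPM of the 8 tested host genes in each library (points), with the group mean (horizontal bar) and SD (error bar, n = 3). The groups stand apart in Snhg12, Snhg1 and Snhg5 and overlap in the other 5 genes.

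Snhg12 (ENSMUSG00000086290, chromosome 4, 132035932 to 132038762, + strand, GRCm39) hosts both kinds of snoRNA, Snora16a, Snora44, Snora61 and Snord99. Its level was 68.4, 72.3 and 76.1 CPM with normoxic-EV replicates 1 to 3 and 45.9, 41.6 and 48.2 CPM with hypoxic-EV replicates 1 to 3. Every normoxic-EV library was above every hypoxic-EV library, with a gap between the groups far wider than the spread within either. The group means were 72.3 ± 3.85 and 45.2 ± 3.34 CPM (SD, n = 3), and the fitted log2 fold change was -0.68 (SE 0.0628, 95% interval -0.81 to -0.55, edgeR adjusted p = 1.96e-08). In absolute size 10.1% of all tested genes and 18.9% of tested lncRNA rows changed by more. No other gene of the table overlapped Snhg12 or started within 1 kb of its start on the opposite strand, apart from its snoRNAs.

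Snhg1 (ENSMUSG00000108414, chromosome 19, 8700801 to 8703811, + strand) carries 8 snoRNA rows. Box C and box D were both marked in 5 of them, and Gm24453, left unmarked, also holds the letters of both. It was at 91.8, 91.3 and 86.2 CPM with normoxic-EV and at 67.7, 76.3 and 66.3 CPM with hypoxic-EV. The groups did not overlap, and hypoxic-EV replicate 2 was the nearest of its group to the normoxic-EV libraries. The means were 89.8 ± 3.11 and 70.1 ± 5.39 CPM (SD, n = 3), and the fitted log2 fold change was -0.36 (SE 0.0577, 95% interval -0.48 to -0.24, edgeR adjusted p = 3.56e-05). In absolute size 29.3% of all tested genes and 50.4% of tested lncRNA rows changed by more. Slc3a2, which encodes the heavy chain of amino acid transporters at the cell surface, starts 68 bases away on the opposite strand. It stood at 576 ± 13.0 CPM with normoxic-EV and 545 ± 34.0 CPM with hypoxic-EV (SD, n = 3), and its log2 fold change of -0.08 was not called (edgeR adjusted p = 0.195). The libraries of Slc3a2 were at 591, 572 and 566 CPM with normoxic-EV and at 564, 506 and 565 CPM with hypoxic-EV. Its groups thus did not overlap either, by a narrow gap. The difference between the changes of Snhg1 and Slc3a2 was not tested.

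Snhg5 (ENSMUSG00000097195, chromosome 9, 88377321 to 88405615, − strand), host of Snord50a and Snord50b, went the other way. It was at 32.8, 35.3 and 34.7 CPM with normoxic-EV and at 37.9, 41.2 and 40.5 CPM with hypoxic-EV. Each hypoxic-EV library was above each normoxic-EV library, although the gap was small. The log2 fold change was 0.22 (SE 0.0646, 95% interval 0.09 to 0.35, edgeR adjusted p = 0.00864), with means of 34.3 ± 1.26 and 39.9 ± 1.71 CPM (SD, n = 3). In absolute size 48.1% of all tested genes and 66.8% of tested lncRNA rows changed by more.

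Gas5 (ENSMUSG00000053332, chromosome 1, 160861992 to 160866116, + strand) gave the most counts of the 9. It was at 159, 163 and 165 CPM with normoxic-EV and at 147, 164 and 142 CPM with hypoxic-EV. Hypoxic-EV replicate 2 lay among the normoxic-EV libraries and the other hypoxic-EV libraries below them. The log2 fold change was -0.10 (SE 0.0531, 95% interval -0.22 to 0.01, edgeR adjusted p = 0.117). Without hypoxic-EV replicate 2 the gene was called lower, with a log2 fold change of -0.17 and an adjusted p of 0.00458; the 12 alternatives gave adjusted p-values from 0.00458 to 0.461. Zbtb37, a zinc finger gene, overlaps Gas5 by 428 bases on the opposite strand, and its total count was 12.4% of that of Gas5. Zbtb37 fell from 21.9 ± 1.74 to 17.1 ± 0.83 CPM (SD, n = 3), with a log2 fold change of -0.36 and an adjusted p of 0.00143 in edgeR. The sources used here do not give the strand setting of the counting, so reads in the overlap cannot be told apart.

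Snhg15 (ENSMUSG00000085156, chromosome 11, 6475295 to 6478841, − strand), host of Snora9, was at 28.1, 33.1 and 28.9 CPM with normoxic-EV and at 26.0, 24.4 and 29.2 CPM with hypoxic-EV. Hypoxic-EV replicate 3 was above 2 of the normoxic-EV libraries. The log2 fold change was -0.17 (SE 0.0812, 95% interval -0.34 to -0.003, edgeR adjusted p = 0.0919). Without hypoxic-EV replicate 3 it was called lower (log2 fold change -0.25, adjusted p = 0.0296), and the 12 alternatives gave adjusted p-values from 0.0296 to 0.39.

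Snhg6, Snhg8 and Snhg17 had adjusted p-values between 0.347 and 0.559. Snhg8 (ENSMUSG00000104960, chromosome 3, 123301194 to 123302053), host of Snora24, was at 34.8, 36.2 and 35.1 CPM with normoxic-EV and at 35.1, 34.5 and 33.1 CPM with hypoxic-EV. The 95% interval of its log2 fold change ran from -0.18 to 0.08. Snhg17 (ENSMUSG00000085385, chromosome 2, 158195620 to 158203501) was at 34.5, 36.3 and 33.4 CPM with normoxic-EV and at 38.4, 39.5 and 33.1 CPM with hypoxic-EV. In Snhg17 hypoxic-EV replicate 3 was the lowest of the 6 libraries and the other hypoxic-EV libraries the highest, with an interval of -0.06 to 0.24. Snhg6 (ENSMUSG00000098234, chromosome 1, 9926809 to 10014398), host of Snord87, showed the same order: it was at 14.8, 15.8 and 15.7 CPM with normoxic-EV and at 17.3, 18.3 and 14.7 CPM with hypoxic-EV, with an interval of -0.08 to 0.31. Over the 5 genes not called, the lowest bound of an interval was -0.34, in Snhg15, and the highest 0.31, in Snhg6. Sgk3, a kinase gene, overlaps Snhg6 by 44262 bases on the opposite strand, with 286% of the total count of Snhg6. The log2 fold change of Sgk3 was 0.14 and was not called (edgeR adjusted p = 0.0791). Mcmdc2 overlaps Snhg6 by 33448 bases, also on the opposite strand, with 1.02% of the total count of Snhg6. As the strand setting is not given, reads in these overlaps cannot be told apart.

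Snhg3 (ENSMUSG00000085241, chromosome 4, 132075325 to 132080997, − strand), host of Snora73a and Snora73b, had 1, 1 and 0 counts in normoxic-EV and 2, 0 and 3 in hypoxic-EV. All 6 values were at or under the limit of 3 counts, so no fold is given. All but 81 bases of Snhg3 lie inside Rcc1 on the same strand. Rcc1 encodes the nucleotide exchange factor of the GTPase Ran. It rose from 83.6 ± 0.70 to 99.7 ± 5.42 CPM (SD, n = 3), with a log2 fold change of 0.25 and an adjusted p of 0.000417 in edgeR. The sources used here do not say how reads shared by Snhg3 and Rcc1 were counted, so the counts do not give the level of Snhg3 transcripts.

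**Figure D3:**
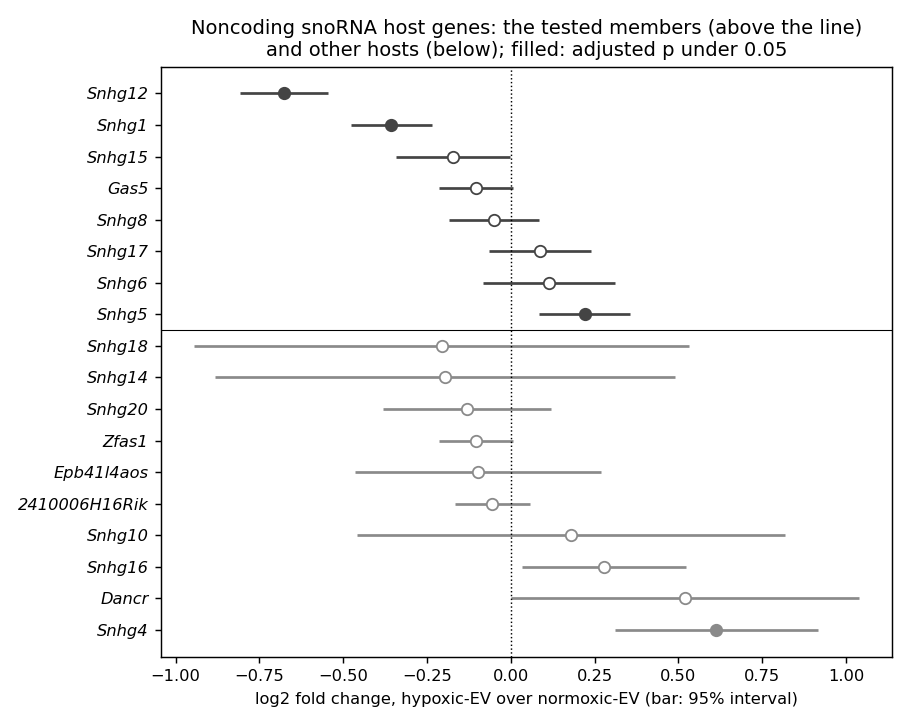
Log2 fold change of hypoxic-EV over normoxic-EV (x axis) with its 95% interval (bars) for the 8 tested host genes above the line and 10 other tested noncoding hosts below it. Filled points have an adjusted p under 0.05: Snhg12, Snhg1 and Snhg5 above, Snhg4 below.

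Compared per length, Snhg8 and Gas5 were the highest of the 9. The authors' FPKM divides a count by the library total and by the gene's length. With normoxic-EV it was 41.1 ± 0.949 for Snhg8 and 40.5 ± 0.799 for Gas5, and with hypoxic-EV 39.7 ± 1.59 and 37.7 ± 2.82 (SD, n = 3). The ranges of that pair overlapped in both groups, so their order is not resolved. Snhg1 came next, at 29.8 ± 1.01 FPKM with normoxic-EV and 23.2 ± 1.70 FPKM with hypoxic-EV, below every value of Gas5. Snhg12 followed at 25.5 ± 1.41 and 15.95 ± 1.21 FPKM, and in each group all its libraries were below those of Snhg1. The order of Snhg5 and Snhg15 differed by group. With normoxic-EV, Snhg5 was at 9.42 ± 0.373 FPKM and Snhg15 at 9.97 ± 0.913 FPKM, with overlapping ranges. With hypoxic-EV, Snhg5 was at 11.0 ± 0.354 FPKM and Snhg15 at 8.81 ± 0.787 FPKM, without overlap. Snhg17 (4.40 ± 0.191 and 4.69 ± 0.458 FPKM) was above Snhg6 (3.65 ± 0.145 and 3.97 ± 0.459 FPKM) in mean, without overlap with normoxic-EV and with overlap with hypoxic-EV. Snhg3 was last, between 0 and 0.13 FPKM, but its counts do not give the level of its transcripts, as said above. For 4 genes, Snhg1, Snhg8, Snhg12 and Snhg17, the length behind the FPKM equalled the whole annotated span, introns and snoRNAs included. A count of these 4 genes therefore does not separate spliced from unspliced RNA, and their FPKM is per base of the span. The length was 4001 of 4125 bases for Gas5 and 3010 of 3547 for Snhg15, so their counts too can include unspliced RNA. It was 3634 of 28295 bases for Snhg5, 4219 of 87590 for Snhg6 and 986 of 5673 for Snhg3. The order per length thus mixes lengths of unlike kind.

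Ratios between hosts within a library do not depend on library scaling. The count of Snhg12 was 2.08, 2.05 and 2.19 times that of Snhg5 in normoxic-EV replicates 1 to 3 and 1.21, 1.01 and 1.19 times in hypoxic-EV replicates 1 to 3. Every hypoxic-EV ratio was lower. This pair joins the host that fell most and the 1 that rose, both without overlap, so their values above fixed that direction. Relative to Gas5, Snhg1 was at 0.576, 0.561 and 0.522 in normoxic-EV and at 0.461, 0.464 and 0.467 in hypoxic-EV, again without overlap. Of all counts on the 9 genes, Gas5 took 34.2 ± 0.519% in normoxic-EV and 35.9 ± 1.30% in hypoxic-EV, and Snhg12 took 15.2 ± 0.688% and 10.8 ± 1.22% (SD, n = 3). The 9 genes together came to 474 ± 9.31 CPM with normoxic-EV and 421 ± 17.2 CPM with hypoxic-EV.

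Sequences around the annotated starts are shown because TOP-like starts are a known feature of this family. The windows of the called genes differ in whether they meet the letter rules below. RefSeq windows on GRCm38.p6 were found for 8 of the 9 genes, Snhg6 not among them. The 50 bases before and 50 bases from the start are printed for the 3 called genes and for Gas5 and Snhg8, which were not called. Capitals mark TATAAA or TATATA on the transcribed strand between 45 and 16 bases before the start, and a C followed by at least 4 pyrimidines that begins between 10 bases before the start and base 20 of the transcript.
Snhg12, chr4:132308628-132308727, + strand: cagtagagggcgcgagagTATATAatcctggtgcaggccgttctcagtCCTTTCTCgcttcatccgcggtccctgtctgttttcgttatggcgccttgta
Snhg1, chr19:8723437-8723536, + strand: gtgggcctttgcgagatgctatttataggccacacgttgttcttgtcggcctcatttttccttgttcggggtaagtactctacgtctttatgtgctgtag
Snhg5, chr9:88522848-88522947, − strand: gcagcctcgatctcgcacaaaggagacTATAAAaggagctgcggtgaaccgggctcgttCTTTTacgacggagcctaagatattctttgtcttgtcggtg
Gas5, chr1:161035116-161035215, + strand: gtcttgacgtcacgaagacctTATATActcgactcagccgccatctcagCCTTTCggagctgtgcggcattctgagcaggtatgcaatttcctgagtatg
Snhg8, chr3:123508287-123508386, − strand: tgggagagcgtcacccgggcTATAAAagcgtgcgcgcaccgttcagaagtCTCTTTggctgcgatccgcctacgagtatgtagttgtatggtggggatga
The pyrimidine run was found in 5 of 8 hosts (Gas5, Snhg3, Snhg5, Snhg8 and Snhg12) and in 39.1% of all 32851 promoter windows. The TATA letters were found in 4 of 8 (Gas5, Snhg5, Snhg8 and Snhg12) and in 2.96% of all windows. Snhg12, which fell, Snhg5, which rose, and Gas5 and Snhg8, which were not called, thus held both features. The windows of Snhg1, which fell, and of Snhg15 and Snhg17, which were not called, held neither by these rules. After the start, Snhg1 has tttttcctt and Snhg17 has tttcct, pyrimidine runs that begin with T. The RefSeq start of Snhg1 lies 772 bases from the median start of its GENCODE M21 transcripts. For Snhg15 the distance is 166 bases, against at most 53 bases for the other 6 hosts. In the whole 300-base window on either strand, TGACGTCA, the cyclic AMP response element, was found in Gas5 and Snhg15 (1.79% of all windows), and CACGTG, the E-box, in Snhg15 (7.15%). A match describes the letters only.

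Of the other noncoding snoRNA hosts, 1 rose and 0 fell among 10 tested. The list held 15 symbols, of which 14 matched the table, and its median log2 fold change was -0.08. The count of 0 was also 0 at an unadjusted p under 0.05, with DESeq2 and with limma-voom. The gene that rose was the lncRNA row of Snhg4, from 4.15 ± 0.424 to 6.36 ± 0.67 CPM (SD, n = 3), with a log2 fold change of 0.61 and an adjusted p of 0.00165 in edgeR. Its row overlaps another row of the same symbol on the same strand, so reads may be divided between them. Snhg16, Dancr and Zfas1 had log2 fold changes of 0.28, 0.52 and -0.10, none of which was called (edgeR adjusted p of 0.0618, 0.0989 and 0.123). Zfas1 and 2410006H16Rik, the most abundant of the list at 71.5 and 109 CPM with normoxic-EV, were at 66.5 and 105 CPM with hypoxic-EV.

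By coordinates, 261 other protein-coding genes spanned a snoRNA row on their strand, and 199 of them were tested. Of these 80 rose and 28 fell (median log2 fold change 0.10). The tested members of lowest p were Rnf149, a ubiquitin ligase gene, at -0.98, and the mitotic genes Ncapd2, Top2a and Cep55 at 0.95, 0.94 and 1.08 on the log2 scale. Of 17 tested genes of other biotypes that spanned a snoRNA row, 3 rose and 1 fell. Gm15832 fell by 0.97 on the log2 scale, and besides Snhg4, already given, ENSMUSG00000120369 and 9330159M07Rik rose by 0.39 and 0.67. Without normoxic-EV replicate 3, 1 rose, and without hypoxic-EV replicate 3, 2 fell; DESeq2 called 1 higher.

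Genes of the machinery that binds snoRNAs rose in part. Of 17 tested snoRNP proteins and assembly factors 8 rose and 0 fell, with a median log2 fold change of 0.16; at an unadjusted p under 0.05, 2 were lower, and DESeq2 and limma-voom each called 0 lower. Without hypoxic-EV replicate 3, 2 were called lower. Nhp2 and Dkc1, subunits of H/ACA particles, had log2 fold changes of 0.59 and 0.52 (edgeR adjusted p of 1.24e-08 and 1.06e-07). Gar1 and Nop10, also subunits of H/ACA particles, had log2 fold changes of 0.05 and -0.14 and were not called. Nolc1, a nucleolar chaperone of snoRNPs, rose by 0.48 and Ruvbl2, an ATPase of snoRNP assembly, by 0.46. Among box C/D proteins, Fbl, the methyltransferase fibrillarin, rose by 0.34 and Nop56 by 0.22. Nop58 and Snu13 had log2 fold changes of 0.07 and -0.12 and were not called.

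Nonsense-mediated decay is the pathway that degrades several of these host RNAs. Of 18 tested factors of it, 1 rose and 4 fell (median -0.05). Pnrc2, which links the pathway to decapping, fell from 188 ± 11.9 to 120 ± 5.91 CPM (SD, n = 3), with a log2 fold change of -0.65 and an adjusted p of 3.25e-09 in edgeR. Magohb, Smg9 and Rbm8a had log2 fold changes of -0.32, -0.28 and -0.17. Eif4a3, like Magohb and Rbm8a a subunit of the exon junction complex, had a log2 fold change of 0.13. Without normoxic-EV replicate 1 the number that fell was 2, and without normoxic-EV replicates 2 or 3 in turn the number that rose was 0; without hypoxic-EV replicate 2 it was 2. Upf1, the central helicase of the pathway, had a log2 fold change of 0.12 and was not called (edgeR adjusted p = 0.0997). Of 10 general RNA decay enzymes 4 rose, Xrn2, Mtrex, Dis3 and Exosc10, by 0.29, 0.28, 0.22 and 0.18 on the log2 scale, and 1 fell, Exosc3, by 0.21. That fall was not called without normoxic-EV replicate 1, hypoxic-EV replicate 1 or hypoxic-EV replicate 3, each left out in turn.

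Of 15 tested messenger RNAs with a TOP element, a list that leaves out the ribosomal protein genes, 12 rose and 0 fell (median 0.35); the number that fell was also 0 at an unadjusted p under 0.05, with DESeq2 and with limma-voom. Hnrnpa1, Nap1l1, Eef2 and Eif3e had log2 fold changes of 0.56, 0.50, 0.43 and 0.43. Eef1g, Tpt1 and Rack1 had log2 fold changes of 0.10, -0.02 and -0.03 and were not called. Many of these genes have processed pseudogenes that may share their reads. Of 12 mTOR and TOP regulators 6 rose and 1 fell (median 0.14). Deptor, an inhibitor of mTOR, rose from 4.24 to 7.65 CPM, Eif4ebp1, a repressor of cap-dependent translation, rose by 0.28 on the log2 scale and Rptor by 0.20, and Tsc1, a brake on mTOR, fell by 0.34. The difference between any of these lists and the 9 host genes was not tested.

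**Figure D4:**
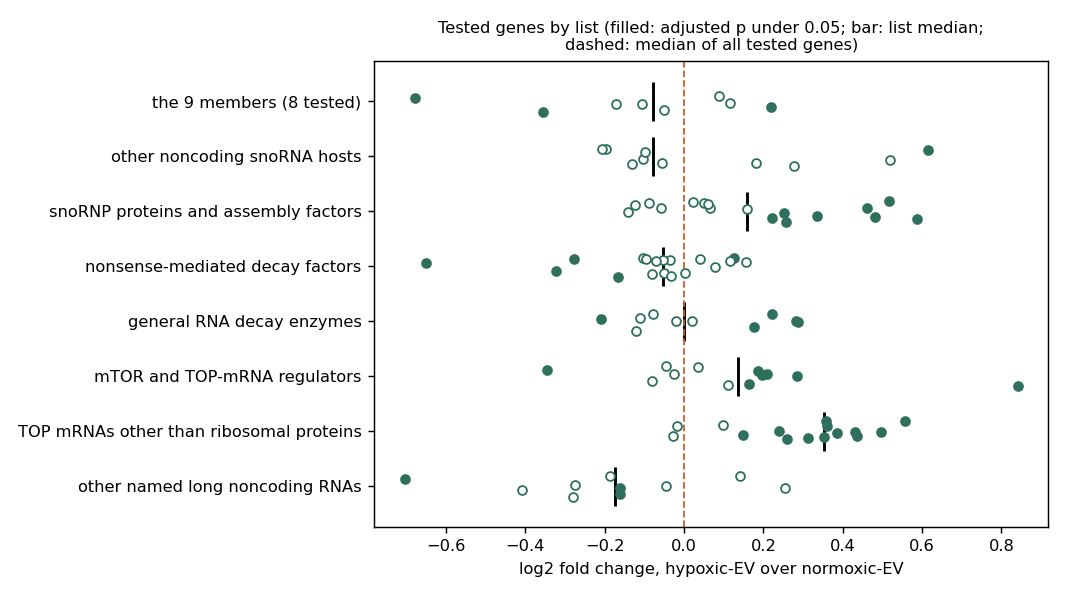
Log2 fold change of hypoxic-EV over normoxic-EV (x axis) for each tested gene (points) in the 9 host genes and 7 other lists, with list medians (bars) and the median of all tested genes (dashed line). Filled points have an adjusted p under 0.05; 12 of 15 TOP mRNAs are filled on the right, and the host genes lie on both sides.

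Other long noncoding RNAs not chosen for snoRNAs gave a median of -0.17. Of 10 tested, 3 fell and 0 rose; the number that rose was also 0 at an unadjusted p under 0.05, with DESeq2 and with limma-voom. Mir22hg, the host of a microRNA, fell by 0.70 on the log2 scale (edgeR adjusted p = 9.52e-07), and Tug1 and Norad fell by 0.16 each. Without normoxic-EV replicate 2, 1 of the list fell. Malat1 and Neat1, nuclear RNAs of speckles and paraspeckles, had log2 fold changes of -0.04 and -0.19 and were not called.

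The authors' deposited table of their own comparison listed 462 genes, 51 of them lncRNA, and none of the 9 hosts. The smallest absolute log2 fold change listed there was 1.001, larger than that of any of the 8 tested hosts in the edgeR fit. The calls made here set no limit on the fold change, so the 2 lists are not of like kind.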

How the data were processed

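Per the labels' protocols, poly(A) RNA was made into TruSeq libraries and read in pairs on an Illumina HiSeq. HISAT2, featureCounts, DESeq2 and the GRCm39 build are named in the submitters' processing notes; the sources used here give no versions, annotation, strand setting or handling of shared reads. Deposited by the authors were raw counts for each gene, and FPKM values that for the 9 genes equalled the count over the library total over 1 length per gene (relative tolerance 1e-06). Their deposited comparison gives log2 fold changes with p-values and adjusted p-values.

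Groups came from the treatment labels. The fit used edgeR 4.0.16 (R 4.3.3) on these counts: filterByExpr (minimum count 10, minimum total 15), TMM scaling, the two-sided quasi-likelihood F-test over 6 libraries, and Benjamini-Hochberg adjustment over 13303 genes, called at 0.05. The SE is the log2 fold change over the square root of F. The code was checked on simulated counts with far fewer changed genes, larger changes than in the hosts and the same dispersion for all genes. That check therefore does not cover the p-values given here. Library pairs within a group differed by 2.72 to 5.84 chi-square per degree of freedom, more than counting noise. CPM values are TMM-scaled and ± is SD.

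The members and lists were chosen with earlier results of these data known, so no list was tested as a set; 97 of 99 list symbols matched. All 9 members were described, and in each list the genes of lowest p were named, up to 4, with others of known function added after their values were seen. Alternatives were RLE scaling, library totals only, no count filter, DESeq2 1.42.0, limma-voom (limma 3.58.1), a replicate block, each library left out, and TPM in place of FPKM.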

Additional observations from a re-analysis of the deposited data

How the results depend on the processing

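The calls of Snhg12, Snhg1 and Snhg5 kept their direction and stayed under an adjusted p of 0.05 under all 12 alternatives, with log2 fold changes of -0.73 to -0.62, -0.42 to -0.31 and 0.20 to 0.25; the number of the 9 hosts called higher was 1 throughout, and the number called lower ran from 2 to 3 with each library left out. Over all genes, 2547 to 3014 were higher and 2390 to 2764 lower with each library left out. Same-numbered libraries did not deviate together (correlations of -0.02, -0.05 and -0.03 across genes for replicates 1 to 3, where no library correlated best with its own number), so the numbers give no pairing. With the replicate block 2910 genes were higher and 2752 lower, 0 nonsense-mediated decay factors rose, and 5 other long noncoding RNAs fell; the cause was not tested. With RLE scaling 1 snoRNP gene fell, and with DESeq2 1 gene of other biotypes spanning a snoRNA row rose; the cause was not tested. With each library left out, the number that fell ran from 0 to 2 for snoRNP genes, 2 to 4 for nonsense-mediated decay factors, 0 to 1 for RNA decay enzymes, 1 to 4 for other long noncoding RNAs and 1 to 2 for genes of other biotypes spanning a snoRNA row, and the number that rose ran from 0 to 2 for nonsense-mediated decay factors and 1 to 3 for genes of other biotypes spanning a snoRNA row. These left-out fits have fewer libraries. Snhg3, with 7 counts in all, fell under the count filter, and whether depth or the counting of reads shared with Rcc1 limits it was not tested.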

Other observations

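The genes whose level followed the mean of the 8 tested hosts most closely over the 6 libraries were Peak1, Tafa2, Twf1, Filip1l and 2810021J22Rik. Pearson's r of log2(CPM + 1) with that mean was 0.998, 0.996, 0.995, 0.995 and 0.993, as a description over 6 libraries that fall into 2 groups. That mean was lower in every hypoxic-EV library than in any normoxic-EV library, so the choice of these genes fixed their direction; their log2 fold changes were -0.16, -0.49, -0.17, -0.50 and -0.78.

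Among the hosts themselves, Snhg6 and Snhg17 had r = 0.92 over the 6 libraries, with hypoxic-EV replicate 3 the lowest of the 6 in both genes, and Snhg12 and Snhg5 had r = -0.89. These values describe 6 libraries that share their totals and scaling, and were chosen for mention after the values were seen.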
